A study of Homo sapiens with 12 samples.

Results

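This report covers the metallothionein genes, the zinc exporter gene SLC30A1 and the zinc-sensing transcription factor gene MTF1 in HCT116 cells treated with NH4Cl, TGF-β or both. The 7 genes, MT1E, MT1F, MT1G, MT1X, MT2A, SLC30A1 and MTF1, were taken by name from the 25733 genes of the deposited FPKM table, and each name matched 1 gene. HCT116 is an established human colorectal cancer line, and NH4Cl served as the source of ammonia. RNA was sequenced in 12 libraries, 3 for each of 4 groups: control cells, cells given TGF-β, cells given NH4Cl, and cells given NH4Cl plus TGF-β. Control cells received vehicle only, NH4Cl was given at 10 mM for 24 h, and TGF-β at 200 pM for 1 h after 23 h in vehicle or, in the combined group, in 10 mM NH4Cl. Doses and times are in the written methods only, since the labels name just the treatments. Neither source says that replicates came from separate cultures, so p-values measure the spread between these libraries, which may be technical.

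Metallothioneins are small cysteine-rich proteins that bind zinc and copper in the cytosol, and they buffer these metals in intestinal epithelial cells. MTF1 is a zinc finger protein that binds free zinc, enters the nucleus and activates genes that carry metal response elements near their start sites, among them the metallothionein genes and SLC30A1. SLC30A1 encodes ZnT1, a transporter of the plasma membrane that moves zinc out of the cell.

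The libraries held 14807630 to 18191998 reads on genes. These totals were recovered from the FPKM values, which are reads scaled by gene length and library depth, so that levels of different genes can be set side by side. Of 9 colon epithelial markers, 8 had a mean of at least 1 FPKM. Their summed level was 2286 to 3429 FPKM per library, with KRT18 the most abundant at a mean of 876 FPKM, and KRT20, a marker of mature colonocytes, stood at 0.190 FPKM. The fibroblast list summed to 8.02 to 11.2 FPKM, with 2 of 6 genes at a mean of at least 1 FPKM and LUM the most abundant at 7.79 FPKM, while COL1A2 and COL3A1 had means of 0.00653 and 0.00745 FPKM. Of the leukocyte list, 3 of 5 genes were in the table, they summed to 0.552 to 2.19 FPKM, and LYZ was the most abundant at 1.12 FPKM. The endothelial list summed to 1.58 to 6.84 FPKM, with VWF the most abundant at 3.01 FPKM and PECAM1 at 0.0348 FPKM. The epithelial label of the line was thus borne out by its markers, and no marker present in the table was at 0 in every library.

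The 5 metallothionein genes lie in a cluster on chromosome 16 of GRCh38 (coordinates from GENCODE release 29). MT2A (ENSG00000125148) spans 56608199 to 56609497 on the plus strand, MT1E (ENSG00000169715) 56625475 to 56627112 on the plus strand, and MT1F (ENSG00000198417) 56657694 to 56660698 on the plus strand. MT1G (ENSG00000125144) spans 56666731 to 56668065 on the minus strand, and MT1X (ENSG00000187193) 56682424 to 56684196 on the plus strand. SLC30A1 (ENSG00000170385) and MTF1 (ENSG00000188786) are on the minus strand of chromosome 1, at 211571568 to 211578742 and at 37809567 to 37859620.

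Averaged over the 12 libraries, MT2A was the most abundant of the 7 genes at 55.0 FPKM, followed by MT1E at 16.6, SLC30A1 at 15.4, MT1X at 3.91, MTF1 at 3.03, MT1G at 1.07 and MT1F at 0.377 FPKM. MT2A stood above the other genes in every library. The ranges of MT1E and SLC30A1 overlapped, as did those of MT1X and MTF1 and those of MT1G and MT1F, so the order within each of these pairs is not settled beyond the spread between libraries. MT1X exceeded MT1G in every library. With a filter at a mean of 1 FPKM, 6 of the 7 genes were tested among 12341 genes, and MT1F was not. Metallothionein transcripts resemble each other, and reads could have been assigned to the wrong gene or left unassigned. Of all 50-base stretches in the exons, 18.3% in MT1X, 16.5% in MT1G, 7.10% in MT1E, 3.02% in MT2A and 1.22% in MT1F also occur in transcripts of another gene. For MTF1 this share was 0.640%, and for SLC30A1 it was 0. In MT1X, 11.3% of the 100-base stretches are shared as well, all with AC026461.1, a processed transcript on the same strand whose exons overlap MT1X. By shared sequence, MT1X and MT1G are the most exposed to such errors.

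MT2A, the general metallothionein of most cell types, and MT1X are shown here with SLC30A1 by the 250 bases upstream of their start sites, because these are genes through which MTF1 is known to act and because MT2A and MT1X were high in the same libraries. The sequences are from a set of RefSeq promoters (GRCh38.p14), in which 4 of the 7 genes were matched (MT2A, MT1X, SLC30A1 and MTF1). MT1E, MT1F and MT1G were not matched in the set used here, so their promoters were not searched. Each is written 5′ to 3′ on the gene's own strand. Capitals mark matches to the metal response element core, searched as TGCACNC and as TGCGCNC on both strands, where N is any base. The windows follow RefSeq start sites, which differ from the gene ends of GENCODE given above. These motifs differ in a fixed base and cannot both match at the same place on a strand, and no marked matches overlap. The MT2A window is chr16:56608334-56608583 (plus strand), which lies inside the longer MT2A gene span of GENCODE, while the MT1X window is chr16:56682220-56682469 (plus strand) and reaches into the MT1X span. The SLC30A1 window is chr1:211579162-211579411 (minus strand) and lies wholly upstream of the SLC30A1 span, so the bases next to the GENCODE start were not searched.
MT2A: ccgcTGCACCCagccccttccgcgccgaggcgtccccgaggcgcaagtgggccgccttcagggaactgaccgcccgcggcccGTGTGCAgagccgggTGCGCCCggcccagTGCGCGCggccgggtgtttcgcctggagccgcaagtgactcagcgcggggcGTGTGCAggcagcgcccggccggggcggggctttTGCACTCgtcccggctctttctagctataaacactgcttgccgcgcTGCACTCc
MT1X: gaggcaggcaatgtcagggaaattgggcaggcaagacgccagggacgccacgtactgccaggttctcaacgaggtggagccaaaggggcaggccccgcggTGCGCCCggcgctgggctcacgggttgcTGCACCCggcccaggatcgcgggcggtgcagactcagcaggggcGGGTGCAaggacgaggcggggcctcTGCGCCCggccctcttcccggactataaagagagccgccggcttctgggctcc
SLC30A1: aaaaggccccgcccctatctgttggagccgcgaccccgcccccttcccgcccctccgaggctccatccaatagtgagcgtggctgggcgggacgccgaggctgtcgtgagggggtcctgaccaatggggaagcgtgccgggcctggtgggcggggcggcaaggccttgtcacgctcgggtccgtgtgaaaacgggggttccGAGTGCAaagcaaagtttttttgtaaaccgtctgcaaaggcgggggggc
The MT2A window holds 5 matches to TGCACNC and 2 to TGCGCNC, 7 in all, and 0.03% of the 35116 promoters in the RefSeq table hold as many in the same length. The MT1X window holds 2 of each, 4 in all, a number reached by 0.37% of promoters. In SLC30A1 there is 1 match to TGCACNC, 49 to 43 bases before the start site, and 24.83% of promoters hold at least 1 match. The MTF1 window holds 0. Taken singly, TGCACNC occurs in 9.87% and TGCGCNC in 16.8% of promoters. A match is a run of letters and not a measured binding site.

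In control cells MT2A measured 42.9, 34.4 and 107 FPKM in replicates 1, 2 and 3, and with TGF-β 40.0, 37.9 and 106 FPKM. With NH4Cl it measured 34.5, 31.9 and 77.3 FPKM, and with NH4Cl plus TGF-β 40.1, 32.7 and 76.3 FPKM. Replicate 3 was the highest library in each of the 4 groups, and the groups overlapped. The counts behind these values were 650 to 2057 reads. MT1E, a metallothionein of the MT1 group, measured 13.1, 10.9 and 30.6 FPKM in control cells, 14.1, 12.6 and 34.1 with TGF-β, 9.42, 10.6 and 20.5 with NH4Cl, and 13.01, 8.89 and 20.7 with NH4Cl plus TGF-β. It followed the same pattern as MT2A, with replicate 3 on top and overlapping groups, on 143 to 522 reads per library.

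MT1X measured 2.03, 1.81 and 7.23 FPKM in control cells, 2.91, 2.01 and 6.44 with TGF-β, 2.05, 2.24 and 7.41 with NH4Cl, and 3.42, 2.80 and 6.54 with NH4Cl plus TGF-β. Its replicate 3 libraries were again the highest of each group, while the groups overlapped throughout. MT1G measured 0.472, 0.776 and 1.17 FPKM in control cells, 0.287, 1.23 and 1.93 with TGF-β, 0.518, 1.22 and 1.94 with NH4Cl, and 0.750, 1.13 and 1.41 with NH4Cl plus TGF-β. These rest on 4 to 21 reads per library, against 54 to 197 for MT1X, so that a few reads move MT1G by a large part of its value. MT1F measured 0.219, 0.308 and 0.607 FPKM in control cells, 0.313, 0.418 and 0.473 with TGF-β, 0.720, 0.0648 and 0.623 with NH4Cl, and 0.232, 0.208 and 0.343 with NH4Cl plus TGF-β. MT1F rests on 2 to 21 reads per library, and its groups overlapped.

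SLC30A1 measured 14.7, 16.05 and 14.4 FPKM in control cells, 16.9, 16.4 and 14.9 with TGF-β, 15.2, 14.7 and 14.8 with NH4Cl, and 15.3, 15.6 and 15.7 with NH4Cl plus TGF-β. The zinc exporter was thus nearly flat, between 14.4 and 16.9 FPKM, with no high replicate 3. MTF1 measured 3.05, 3.19 and 2.67 FPKM in control cells, 2.97, 3.16 and 3.23 with TGF-β, 3.12, 3.56 and 2.88 with NH4Cl, and 2.87, 2.68 and 2.96 with NH4Cl plus TGF-β. It ranged from 2.67 to 3.56 FPKM, on 318 to 467 reads. As these are bulk samples, fewer cells with a transcript and less transcript per cell cannot be told apart.

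**Figure D1:**
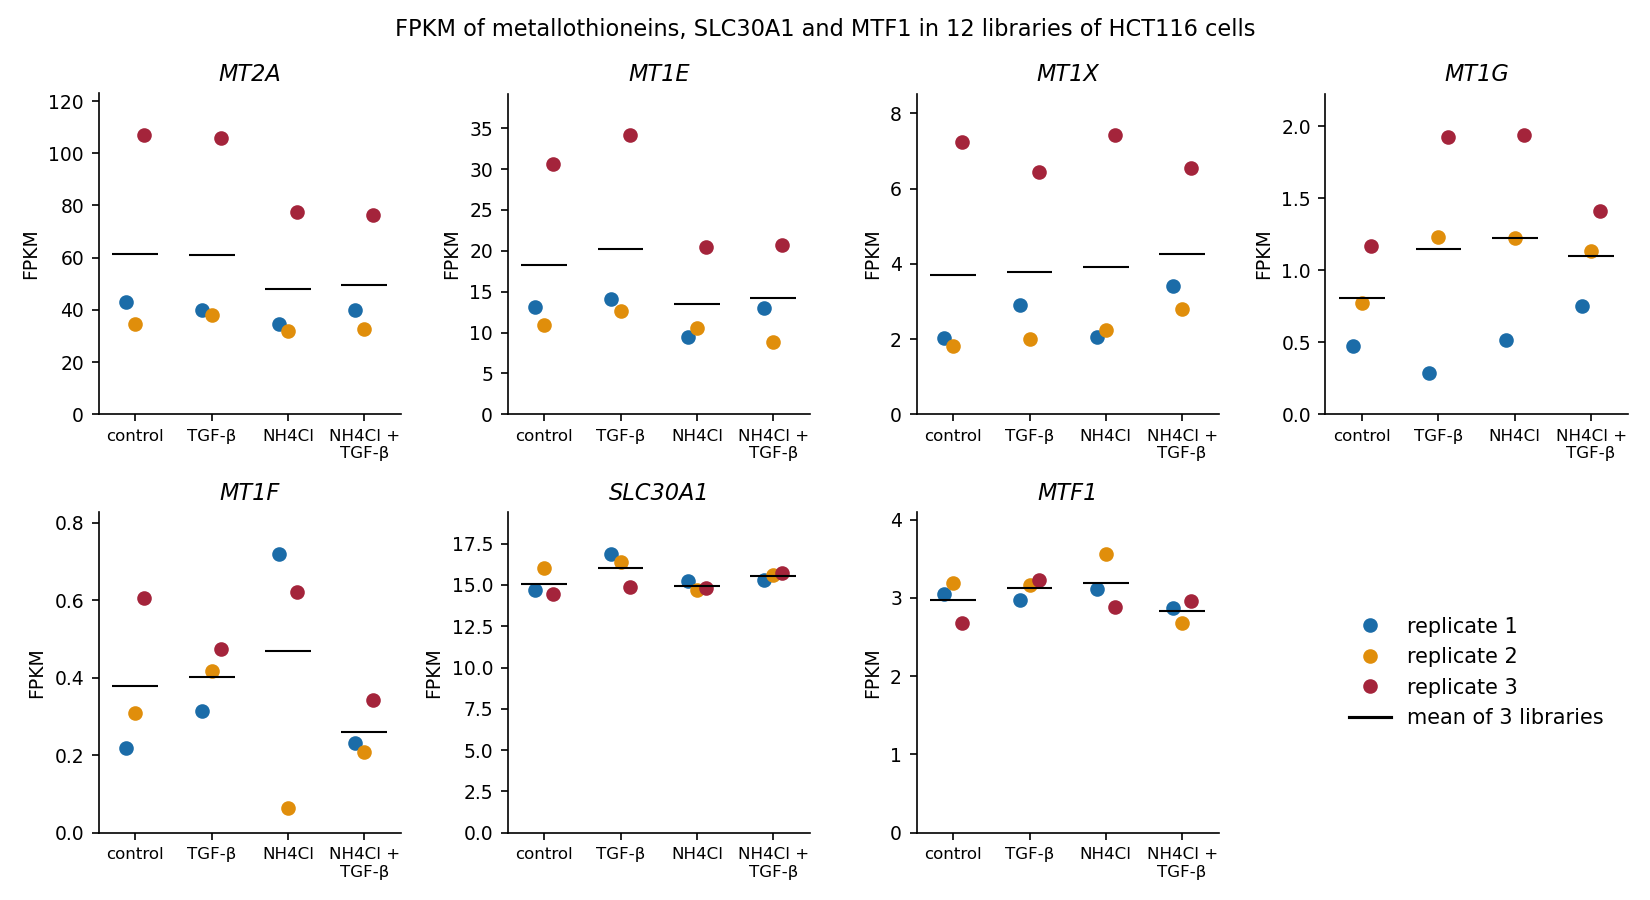
FPKM of each of the 7 genes (vertical axis, from 0) by treatment group (horizontal axis), with a point for each of the 12 libraries coloured by replicate number and a line at the mean of the 3 libraries. MT2A, MT1E and MT1X stand apart in replicate 3 of every group, up to 107 FPKM for MT2A, whereas SLC30A1 stays between 14.4 and 16.9 FPKM.

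For MT2A, MT1E and MT1X, replicate 3 differed from the other replicates by more than any treatment differed from its comparison group. On the log2(FPKM + 1) scale, replicate 3 exceeded the mean of replicates 1 and 2, averaged over the 4 groups, by 1.28 for MT2A, 1.23 for MT1X, 1.11 for MT1E and 0.55 for MT1G. MT2A ranked 28th of 12341 genes by this difference, MT1X 41st, MT1E 66th and MT1G 571st. For SLC30A1 the difference was -0.06 and for MTF1 -0.05, against a median of -0.0088 and an SD of 0.290 over all genes. MT2A, MT1E, MT1X and MT1G were highest in replicate 3 in 4 of 4 groups, as were 25.0% of all genes tested, and 99 genes had a difference of at least 1. MT1G reached the filter through replicate 3 (mean 1.61 FPKM, against 0.799 FPKM in replicates 1 and 2), and MT1F, under the filter, was not highest in replicate 3 with NH4Cl. HERPUD1, a gene of the endoplasmic reticulum stress response that neighbours the cluster, was also high in replicate 3, at 28.1 FPKM against 11.2 and 10.2 FPKM in replicates 1 and 2 of the control cells. Other tested neighbours, NUDT21 (24.4 against 27.7 and 27.2 FPKM) and NLRC5 (0.785 against 0.973 and 1.02 FPKM), were lower there. What set replicate 3 apart was not tested.

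**Figure D2:**
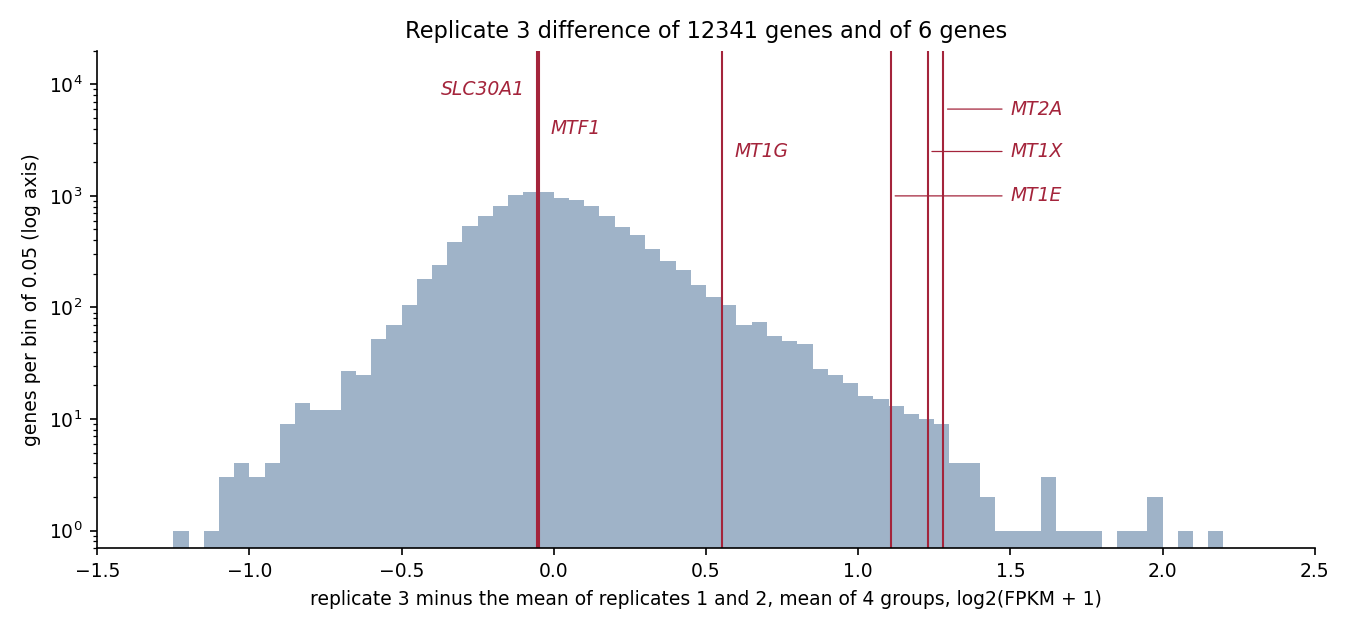
Histogram of the difference between replicate 3 and the mean of replicates 1 and 2, on the log2(FPKM + 1) scale and averaged over the 4 groups, for 12341 genes (vertical axis on a log scale), with lines at 6 genes. MT1E, MT1X and MT2A lie in the right tail at 1.11 to 1.28, and SLC30A1 and MTF1 lie near the middle.

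The first question is whether NH4Cl changed these genes, in cells without TGF-β (NH4Cl against control) and in cells with it (NH4Cl plus TGF-β against TGF-β). These comparisons share no libraries. Within replicate numbers, MT2A was lower with NH4Cl by 19.6%, 7.18% and 27.6% of its FPKM in replicates 1, 2 and 3 without TGF-β. With TGF-β its FPKM with NH4Cl was 1.00 times that without NH4Cl in replicate 1 and 13.6% and 27.8% lower in replicates 2 and 3. MT1E was lower by 28.3%, 2.87% and 32.9% without TGF-β and by 7.85%, 29.3% and 39.3% with it, hence in 6 of 6 pairs, while MT2A was lower in 5 of 6. Among all genes tested, 15.5% were lower with NH4Cl in 6 of 6 pairs and 28.3% in 5 or 6.

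In the limma model without a block, 0 of the 6 tested genes passed an adjusted p of 0.05 for NH4Cl against control, where 0.381% of all genes tested did, and 0 for NH4Cl plus TGF-β against TGF-β, where 1.03% did. At an unadjusted p under 0.05, 0 of the 6 passed in either comparison, against 1333 and 1642 of the 12341 genes. In this model the replicate 3 libraries widen the error: the log2 fold change of MT2A was -0.29 with a standard error of 0.539 without TGF-β and -0.22 with a standard error of 0.539 with it, and that of MT1E was -0.34 and -0.42 with a standard error of 0.477. Because libraries with the same replicate number deviated together, the replicate number was also fitted as a block. The block model called 13.6% of all genes tested for NH4Cl against control and, of the 6, MT2A (log2 fold change -0.29, standard error 0.0834, limma adjusted p = 0.0459), but not MT1E (limma adjusted p = 0.0881). For NH4Cl plus TGF-β against TGF-β it called 18.8% of all genes and, of the 6, MT1E (-0.42, standard error 0.120, limma adjusted p = 0.0370), but not MT2A (limma adjusted p = 0.0925). At an unadjusted p under 0.05 the block model had 2 of the 6 in each comparison, MT2A and MT1E, against 3585 and 4124 of all genes. The interaction between these treatments was -0.08 for MT1E and 0.07 for MT2A (limma adjusted p = 0.992 for each with the block), so the decreases in cells with and without TGF-β were not shown to differ. These calls lie close to the threshold. With 1 library left out of the block model, MT2A passed in 5 of 12 limma fits without TGF-β (adjusted p 0.0220 to 0.172). It was lost without control replicate 1 (0.128) or 3 (0.172), TGF-β replicate 2 (0.0626), NH4Cl replicate 1 (0.130), 2 (0.0759) or 3 (0.136), or NH4Cl plus TGF-β replicate 2 (0.0621). MT1E with TGF-β passed in 6 of 12 limma fits (adjusted p 0.0109 to 0.135). It was lost without control replicate 1 (0.0521), TGF-β replicate 1 (0.0668), 2 (0.0802) or 3 (0.132), or NH4Cl plus TGF-β replicate 2 (0.126) or 3 (0.135). With only 2 of the 3 replicates in the block model, neither gene passed in its comparison.

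Averaged over both TGF-β states, a comparison added after the data were seen, MT1E decreased with NH4Cl by 0.38 (95% interval -0.572 to -0.193, standard error 0.0849, limma adjusted p = 0.00752 with the block) and MT2A decreased by 0.26 (95% interval -0.388 to -0.125, standard error 0.0590, limma adjusted p = 0.00890). The block model called 31.0% of all genes in this comparison, so 2 of 6 is close to the share of all genes, and the model without the block called 6.14% of all genes and 0 of the 6. By size of change, MT1E stood at percentile 1.32 and MT2A at percentile 4.01 of the 12341 genes, counted from the largest fall. Both genes passed in each of 12 block fits with 1 library left out, and with TPM scaling in the block model (limma adjusted p = 0.00524 and 0.00686). They did not pass with replicates 1 and 2 only, where the log2 fold change was -0.26 for MT1E (limma adjusted p = 0.0922) and -0.15 for MT2A (limma adjusted p = 0.0548). Whether the size of the decrease differs between replicates was not tested.

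The other tested genes did not pass in any of these comparisons with either model. MT1X was higher with NH4Cl in 6 of 6 pairs, by FPKM ratios of 1.01, 1.24 and 1.03 without TGF-β and 1.17, 1.40 and 1.02 with it. Of all genes, 15.7% were higher in 6 of 6 pairs, and for MT1X the averaged log2 difference was 0.13 (standard error 0.0916, limma adjusted p = 0.308 with the block). MT1G was higher in 4 of 6 pairs, and its averaged log2 difference was 0.15 (limma adjusted p = 0.239). For SLC30A1 the averaged log2 difference was -0.03 with a 95% interval of -0.103 to 0.0503, higher in 3 of 6 pairs (limma adjusted p = 0.593). For MTF1 it was -0.01 with a 95% interval of -0.129 to 0.0993, higher in 3 of 6 pairs (limma adjusted p = 0.853). The intervals of the exporter and of the transcription factor were the narrowest of the 6 in this comparison, together with that of MT2A. MT1F, outside the filter, was lower in 4 of 6 pairs, and in a fit with no filter its log2 difference was 0.07 without TGF-β and -0.15 with it (limma adjusted p = 0.958 and 0.884).

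**Figure D3:**
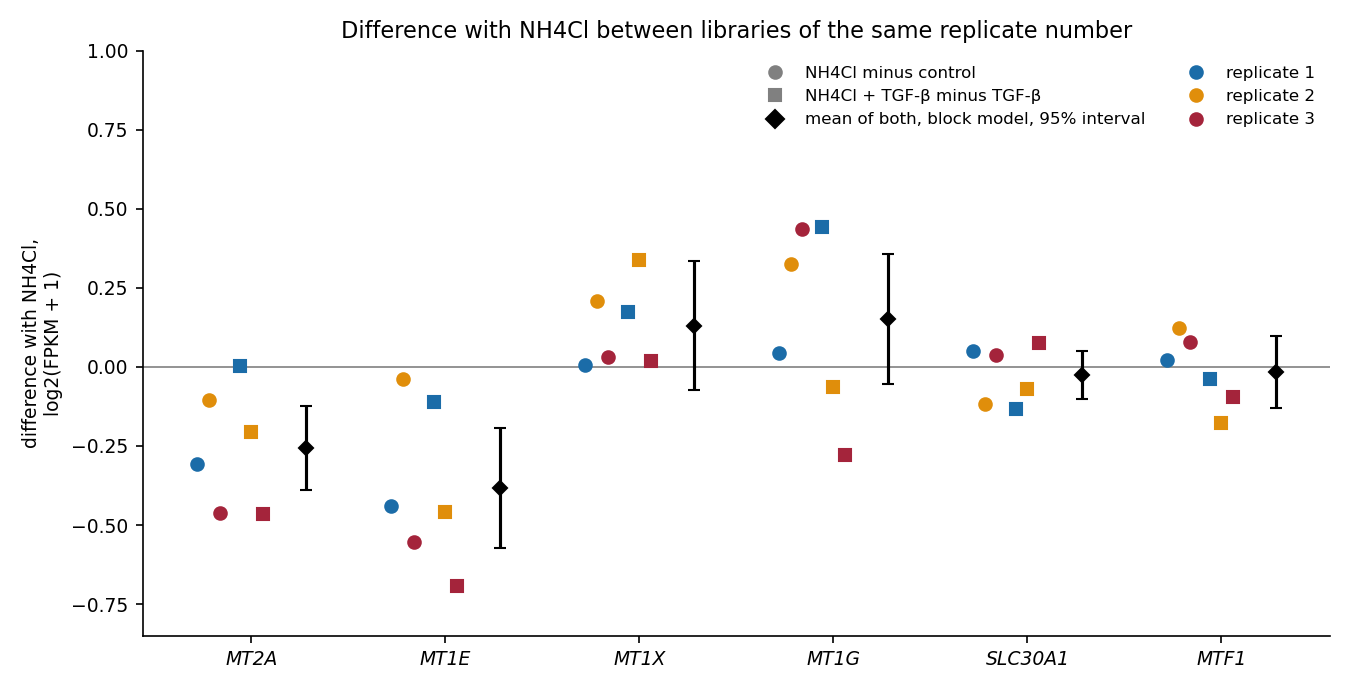
Difference with NH4Cl on the log2(FPKM + 1) scale (vertical axis) for the 6 tested genes, between libraries of the same replicate number without TGF-β (circles) and with it (squares), beside the mean from the block model with its 95% interval (diamonds). MT1E lies under 0 in 6 of 6 pairs and MT2A in 5 of 6, MT1X lies above 0 in 6 of 6, and SLC30A1 and MTF1 lie around 0.

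The summed FPKM of the 5 metallothioneins was 58.7, 48.2 and 146 in control cells, 57.6, 54.1 and 149 with TGF-β, 47.2, 46.1 and 108 with NH4Cl, and 57.5, 45.8 and 105 with NH4Cl plus TGF-β. It was lower with NH4Cl in 6 of 6 pairs, by a small margin in replicate 1 with TGF-β, and replicate 3 stood apart in each group. MT2A made up 69.3% to 73.1% of the sum and MT1E 19.0% to 24.5%, so these 2 shares varied less than the sum did, while the smaller shares of MT1G (0.498% to 2.66%) and MT1F (0.141% to 1.53%) varied more. MT1X made up 3.46%, 3.75% and 4.94% of the sum in control cells against 4.34%, 4.87% and 6.88% with NH4Cl. With TGF-β its share was 5.05%, 3.71% and 4.33%, and with NH4Cl plus TGF-β 5.94%, 6.13% and 6.22%. The share of MT1X was thus higher with NH4Cl in 6 of 6 pairs, as was the share of MT1G, whereas that of MT1E was lower in 5 of 6. This pattern was noticed in the data, shares of a sum depend on each other, and no test was made of it.

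**Figure D4:**
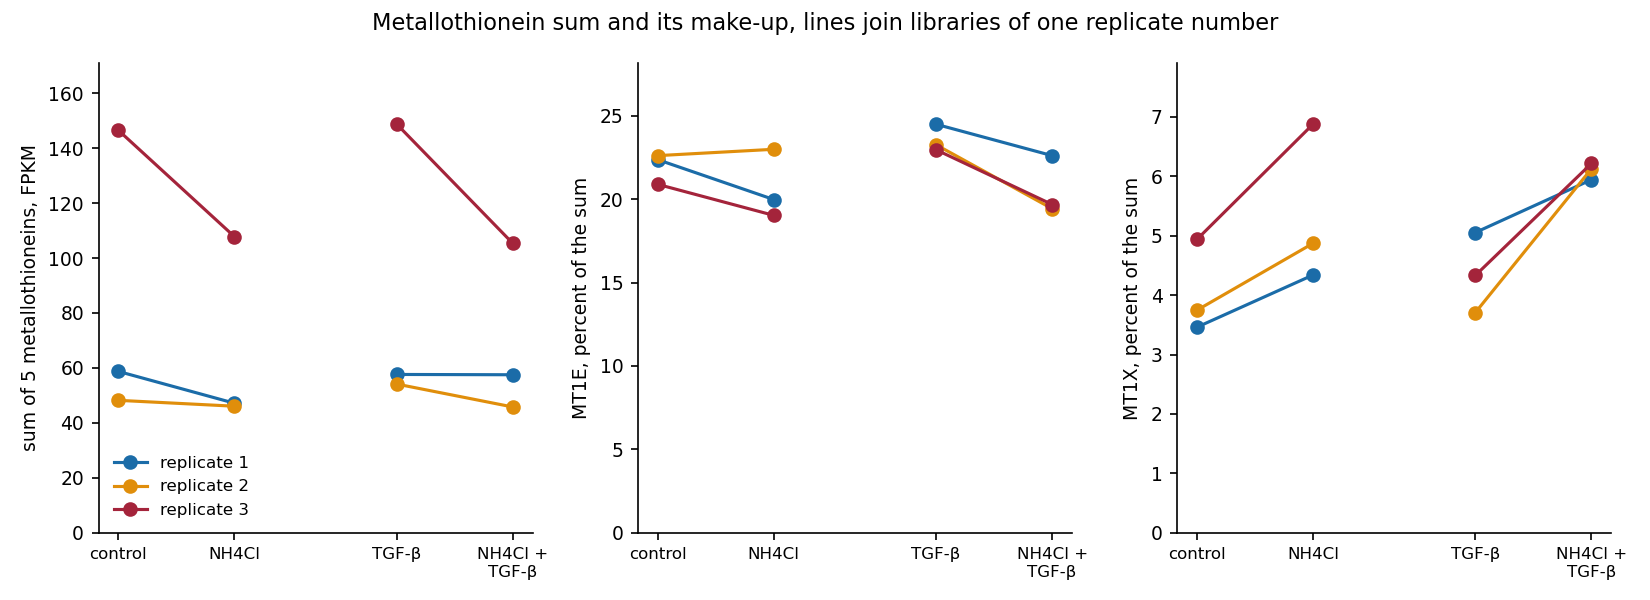
Summed FPKM of the 5 metallothioneins (left) and the percent of that sum from MT1E (middle) and MT1X (right), with lines joining libraries of the same replicate number without and with NH4Cl. The sum drops most in replicate 3, from 146 to 108 FPKM without TGF-β, and the MT1X share is higher with NH4Cl along each of the 6 lines.

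The second question is whether 1 h of TGF-β changed these genes, in cells without NH4Cl (TGF-β against control) and in cells with it (NH4Cl plus TGF-β against NH4Cl). In the limma model without a block, 0 of the 6 genes and 0.00% of all genes passed in either comparison, and 0 of the 6 had an unadjusted p under 0.05, against 103 and 165 of all genes. With the block, 0 of the 6 passed, against 1 gene (0.00810% of all genes) in each of these comparisons. In that model 0 of the 6 had an unadjusted p under 0.05, against 422 of all genes in TGF-β against control and 879 in NH4Cl plus TGF-β against NH4Cl. The log2 differences with TGF-β in cells without NH4Cl were 0.15 for MT1E, 0.19 for MT1G, 0.11 for MT1X, 0.01 for MT2A, 0.09 for SLC30A1 and 0.05 for MTF1. In cells with NH4Cl they were 0.07 for MT1E, -0.05 for MT1G, 0.20 for MT1X, 0.08 for MT2A, 0.06 for SLC30A1 and -0.12 for MTF1. SLC30A1 was higher with TGF-β in 3 of 3 pairs in both settings, at a block standard error of 0.0485 (limma adjusted p = 1.00 without NH4Cl and 0.844 with it). How many of all genes were higher with TGF-β in 3 of 3 pairs in both settings was not counted. MT2A had 95% block intervals of -0.179 to 0.193 and -0.110 to 0.262.

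The interaction between NH4Cl and TGF-β was called for 0 of the 6 genes in the limma model without a block, where 0.00% of all genes passed, and for 0 with the block, where again 0.00% did. At an unadjusted p under 0.05, 0 of the 6 passed in either model, against 115 of all genes without the block and 537 with it. MTF1 had an interaction of -0.18 (block standard error 0.102, 95% interval -0.406 to 0.0503, limma adjusted p = 0.992), since it was higher with NH4Cl in 3 of 3 pairs without TGF-β and lower in 3 of 3 pairs with it. Counted by libraries that do not overlap, 0 of the 6 genes were separated in NH4Cl against control, where 17.5% of all genes tested were, and 1 in NH4Cl plus TGF-β against TGF-β, where 16.3% were. That gene was MTF1, whose highest value with both treatments, 2.96 FPKM, lay just under its lowest with TGF-β, 2.97 FPKM. In TGF-β against control 0 were separated, against 3.56% of all genes, and in NH4Cl plus TGF-β against NH4Cl 1 was, against 4.61%, namely SLC30A1 with 15.3 FPKM or more over 15.2 FPKM or less.

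MT2A and MT1E moved together, also after the level of each replicate number was removed. Over the 12 libraries the Pearson correlation of log2(FPKM + 1) was 0.978 for MT2A and MT1E, and 0.927 after the mean of each replicate number was subtracted. What stays in are the differences with NH4Cl, which were largest in replicate 3. There they were -0.46 without and -0.47 with TGF-β for MT2A, and -0.55 and -0.69 for MT1E. How much of the 0.927 rests on replicate 3 was not tested. MT1X correlated with MT2A at 0.925 and with MT1E at 0.873 before that subtraction, and at -0.05 and -0.01 after it. On 54 to 197 reads per library, counting error in MT1X could hide a weaker likeness to them that remains. Libraries of the same treatment share that treatment, and these values are a description. After the subtraction, the 5 genes most like MT2A over the 12 libraries were MAGED1 (0.962), CPE (0.961), ELAC2 (0.960), GMPR2 (0.957) and KRT23 (0.952), and before it their correlations with MT2A were -0.757, 0.544, -0.856, 0.736 and 0.375. The 5 most like SLC30A1 were SH3RF3 (0.914), BCL3 (0.866), GADD45B (0.827), PPP2CB (0.813) and PIAS1 (0.812), with -0.177 to 0.246 before the subtraction. Those most like MTF1 were MICAL2 (0.862), AL139095.2 (0.858), RPL36A (0.842), CAP2 (0.836) and RIMBP2 (0.829), with 0.0283 to 0.640 before it.

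Of 10 other metallothionein genes, 4 were in the table and 1, MT1A, had a mean of at least 1 FPKM (1.22 FPKM), followed by MT3 at 0.577 FPKM. MT1A measured 0.746, 1.18 and 1.53 FPKM in control cells, 0.951, 0.166 and 0.347 with TGF-β, 1.47, 0.773 and 2.10 with NH4Cl, and 2.21, 1.65 and 1.49 with NH4Cl plus TGF-β. It was lower with NH4Cl in replicate 2 without TGF-β and higher in the other pairs, and in the cells with TGF-β the groups did not overlap. The group with TGF-β alone was low, on 7, 1 and 2 reads. It passed in the block model with TGF-β (log2 fold change 0.93, limma adjusted p = 0.0158) and averaged over both states (0.55, limma adjusted p = 0.0208), but not without TGF-β (0.17, limma adjusted p = 0.658). The block model called 18.8% and 31.0% of all genes in the comparisons that MT1A passed. In the model without the block it did not pass (limma adjusted p = 0.118 and 0.0884 for the former comparisons). MT1A reached the filter through the groups with NH4Cl (mean 1.62 FPKM, against 0.820 FPKM without NH4Cl), and in a block fit with no filter it did not pass (limma adjusted p = 0.0537 and 0.0628). MT1A rests on 1 to 14 reads per library, and it shares 50-base stretches with MT1F and MT1X.

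Of 10 other zinc exporters, 7 were tested. In the block model averaged over both TGF-β states, 1 rose and 3 fell with NH4Cl, with a median of -0.10 over the 7 against -0.00061 over all genes, in a fit that called 31.0% of all genes. Without the block 0 of the 7 passed in the same comparison, against 6.14% of all genes. TMEM163, a zinc efflux transporter, rose by 0.12 (limma adjusted p = 0.0372). SLC30A6 of the Golgi fell by 0.17 (limma adjusted p = 0.0185), SLC30A3 by 0.17 (limma adjusted p = 0.0331), and SLC30A9, a mitochondrial transporter and the most abundant of the list at 12.7 FPKM, by 0.11 (limma adjusted p = 0.0293). In the single comparisons 0 of the 7 passed with either model. Of all genes, the block model called 13.6% for NH4Cl against control and 18.8% for NH4Cl plus TGF-β against TGF-β. Without the block these shares were 0.381% and 1.03%.

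Zinc importers of the SLC39 family had 11 of 14 genes tested, 4 of which rose and 0 of which fell with NH4Cl in the same averaged block model, with a median of 0.06. SLC39A4, the zinc importer of the intestinal brush border, measured 9.59, 8.88 and 10.9 FPKM in control cells, 8.37, 8.48 and 11.9 with TGF-β, 10.4, 12.2 and 12.6 with NH4Cl, and 11.9, 12.2 and 13.7 with NH4Cl plus TGF-β. It was higher with NH4Cl in each pair of libraries with the same number. Its log2 fold change was 0.31 (standard error 0.0522, limma adjusted p = 0.00191), and the others were 0.16 for SLC39A3, 0.12 for SLC39A8 and 0.07 for SLC39A14. SLC39A7, the most abundant importer at 42.5 FPKM, differed by -0.02 (limma adjusted p = 0.613). In the single comparisons with the block, SLC39A14 rose without TGF-β, where 13.6% of all genes were called. SLC39A3 and SLC39A4 rose with TGF-β, where 18.8% were. Without the block 0 of the 11 passed. That model called 6.14% of all genes in the averaged comparison, and 0.381% without TGF-β and 1.03% with it in the single ones. With the block, the share of 4 in 11 in the averaged comparison stands beside 31.0% of all genes.

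Metallothioneins also bind copper, and 9 of 11 copper handling genes were tested. With NH4Cl, 3 rose and 2 fell in the averaged block model, which called 31.0% of all genes, with a median of 0.0027. COMMD1, which takes part in copper export, fell by 0.38 (limma adjusted p = 0.000957), and CCS, the copper chaperone of superoxide dismutase, fell by 0.27 (limma adjusted p = 0.000292). Both also passed averaged over the TGF-β states without the block (limma adjusted p = 0.00611 and 0.0196), where 6.14% of all genes did. With the block both passed in each single NH4Cl comparison. Of the 9, 1 rose and 2 fell in each of these, against 13.6% of all genes called without TGF-β and 18.8% with it. Averaged over both states, COX17, the copper importer SLC31A1 and the chaperone ATOX1 rose by 0.17, 0.15 and 0.15 with the block. None of these rises passed without the block (limma adjusted p = 0.139, 0.198 and 0.0753).

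Of the 10 protein-coding genes nearest the cluster, 5 on each side, 7 were tested, and 2 rose and 0 fell with NH4Cl in the averaged block model, with a median of 0.06. Of all 12341 genes, 1981 rose and 1849 fell in that fit. NLRC5, an activator of MHC class I genes, measured 0.973, 1.02 and 0.785 FPKM in control cells, 1.03, 0.862 and 0.850 with TGF-β, 2.01, 2.12 and 1.97 with NH4Cl, and 1.88, 2.14 and 1.76 with NH4Cl plus TGF-β. It rose by 0.64 (limma adjusted p = 3.18e-05 with the block and 0.000543 without it). NLRC5 reached the filter through the groups with NH4Cl (mean 1.98 FPKM, against 0.920 FPKM without NH4Cl), and with no filter it passed as well (limma adjusted p = 0.000234 with the block and 0.00147 without it). BBS2, part of a protein complex of cilia, rose by 0.24 (limma adjusted p = 0.000734 with the block and 0.0513 without it), and NUDT21, the most abundant neighbour at 25.4 FPKM, differed by -0.02.

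**Figure D5:**
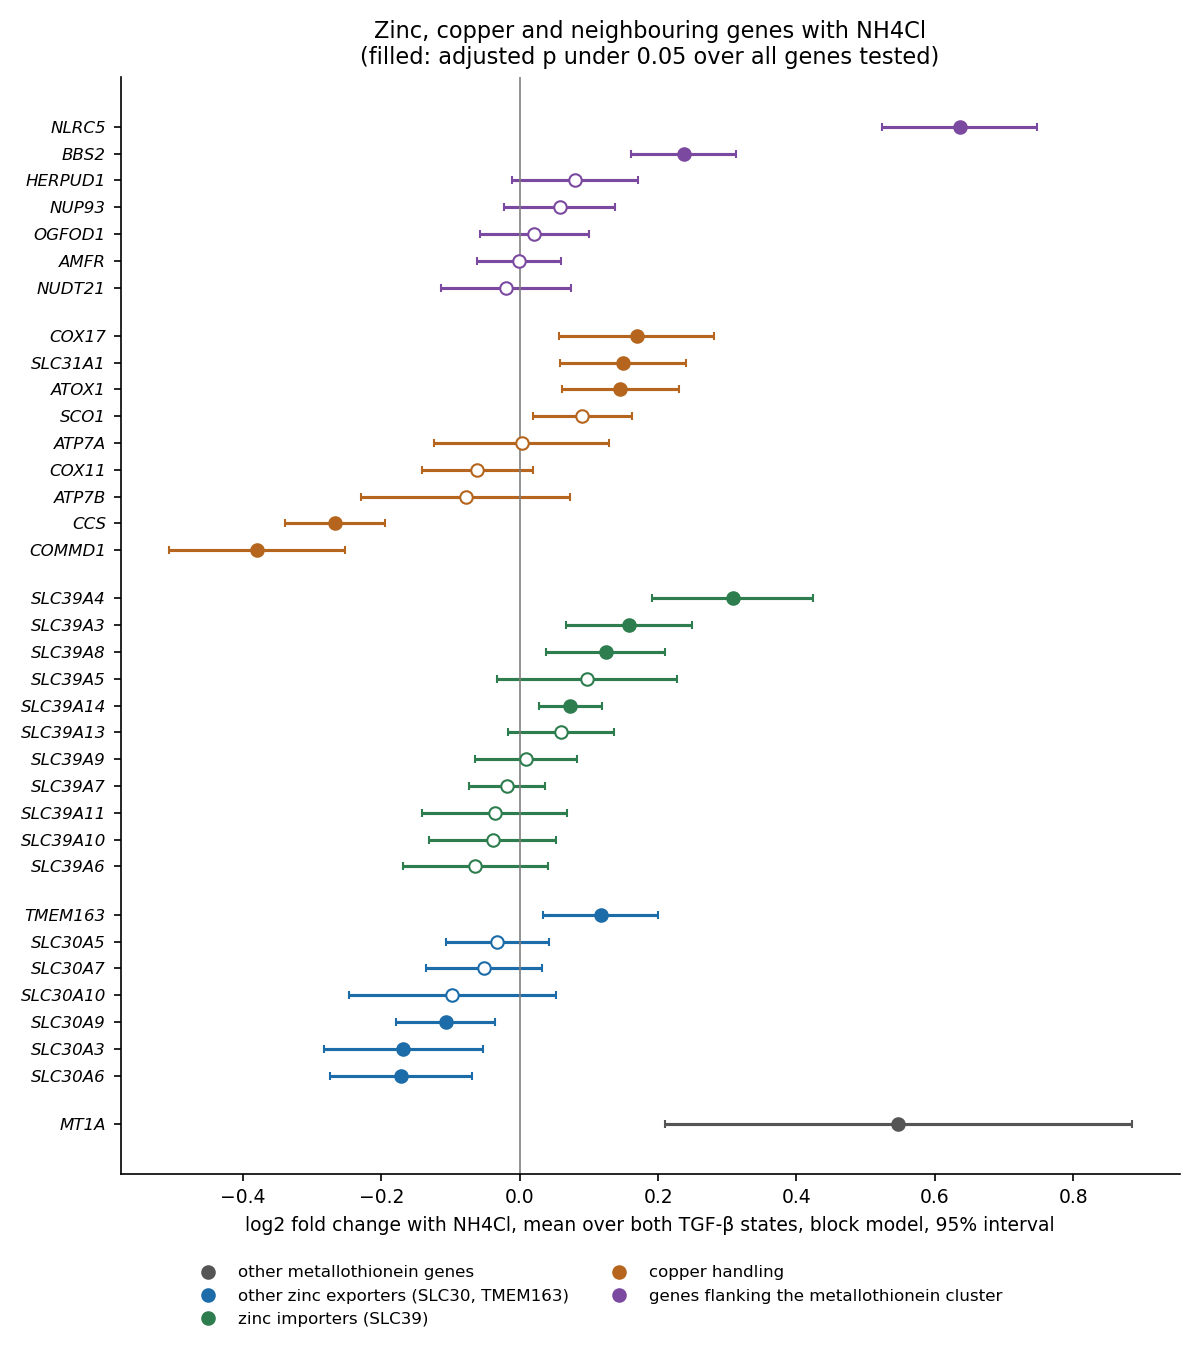
Log2 fold change with NH4Cl averaged over both TGF-β states in the block model (horizontal axis, points with 95% intervals) for the tested genes of the other metallothionein, zinc exporter, zinc importer, copper and neighbouring gene lists. Filled points passed an adjusted p of 0.05 over all genes: NLRC5 and MT1A lie furthest to the right at 0.64 and 0.55, and COMMD1 furthest to the left at -0.38. MT1A reached the filter through the groups with NH4Cl and did not pass in a block fit with no filter (limma adjusted p = 0.0628).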

How the data were processed

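RNA sequencing of HCT116 cells was analysed in 4 groups of 3 libraries, with groups and replicate numbers read from the labels, and doses and durations from the written methods. The methods name HTSeq 0.11.1 for counting and DESeq2 for testing, the submitters' processing notes list Trimmomatic 0.36, STAR 2.5.2b, featureCounts, Subread 1.5.2 and GRCh38, and strand use is not stated. The methods name the PureLink RNA Mini Kit, the labels the RNeasy Plus Mini kit. The authors deposited FPKM for 25733 genes, all matched by identifier to GENCODE release 29. FPKM times exon length gave whole reads in 100% of values (tolerance 0.05 reads), which were used for depth, read counts and the comparison of replicates, not for tests.

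Values were changed to log2(FPKM + 1), which understates the change of genes with low FPKM, for 12341 genes whose mean FPKM reached 1. Using limma 3.58.1 under R 4.3.3, 4 group means were modelled over the 12 libraries (intensity trend, two-sided, Benjamini-Hochberg over all genes tested, threshold 0.05) after a test on simulated data. There were 5 comparisons, and NH4Cl averaged over both TGF-β states was added after the data were seen. Comparisons that share libraries, such as NH4Cl against control and TGF-β against control, are given side by side. Deviations from group means correlated between libraries of the same replicate number in 18 of 18 pairs (0.349 to 0.774), so these numbers were taken as pairs and fitted as a block. What a number stands for is not given in the sources used here. Compared within groups, chi-square values averaged 1.76 to 5.02 over genes for replicate 1 against 2 and 25.4 to 36.3 for either against replicate 3, where counting error gives about 1, so no library was a copy of another in its group. Python 3.11.15, numpy 2.4.6, pandas 2.3.3 and matplotlib 3.10.9 were used for the rest.

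Alternatives were a pseudocount of 0.1, no filter, a mean FPKM of at least 5, TPM scaling, median centring, only the groups compared, the block with pairs of replicates or with TPM, replicates 1 and 2 only, no trend, and each library left out in turn (with the block, added after the data were seen, as was a block fit with no filter for MT1A and NLRC5). All 7 genes are named. From each list, the genes past the threshold and the 2 with the highest mean FPKM are named, at most 5 per list and comparison. For MT2A, SLC30A1 and MTF1, the 5 genes with the highest correlation are named. KRT20 and the markers named by level were chosen after their values were seen. The genes and lists were chosen with earlier results of these data known.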

Additional observations from a re-analysis of the deposited data

Results flagged for a closer look

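MTF1 passed in no comparison, but its pairs of libraries pointed in opposite directions: with NH4Cl it was higher in 3 of 3 pairs of libraries without TGF-β, by log2 differences of 0.02, 0.12 and 0.08, and lower in 3 of 3 pairs with TGF-β, by -0.04, -0.18 and -0.10. Opposite directions in 3 of 3 and 3 of 3 pairs, either way round, occurred in 160 of the 12341 genes tested (1.30%), and MTF1 was noticed for its pattern among 6 genes. The difference between these effects, the interaction, was -0.18 on the log2(FPKM + 1) scale. In the limma model it did not pass the threshold (adjusted p = 1.00 without the block and 0.992 with it, unadjusted p = 0.136 and 0.113). With a block standard error of 0.102, its 95% interval runs from -0.406 to 0.0503 and takes in 0. With 1 library left out, the interaction of MTF1 ranged from -0.23 to -0.11 in limma fits without and with the block.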

How the results depend on the processing

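Without a block, 0 of the 6 tested genes passed in any fit that included them, also with each library left out. With a mean FPKM of at least 5, MT1G, MT1X and MTF1 were not tested. The fits of only the groups compared cover neither the interaction nor the averaged comparison. With the replicate block, 1 passed for NH4Cl against control and 1 for NH4Cl plus TGF-β against TGF-β, also with TPM scaling (1 and 1), and 2 passed averaged over both TGF-β states, also with TPM scaling (2), with replicates 1 and 3 only (2) and with replicates 2 and 3 only (2), but 0 with replicates 1 and 2 only. The block changed no other call of these genes. With 1 library left out, without or with the block, the number ranged from 0 to 2 for NH4Cl against control, from 0 to 1 for NH4Cl plus TGF-β against TGF-β, and from 0 to 2 averaged, where it was 2 in each of the 12 block fits. Of all genes, the block moved the calls from 47 to 1674, from 127 to 2322 and from 758 to 3830 in these comparisons, and the 2-group fits called 0 in the former pair.

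No log2 fold change that passed the threshold in a block fit changed direction in another block fit. In the block fit with pairs of replicates, the changed values were, for SLC30A1, 0.043 (NH4Cl against control, replicates 1 and 3), 0.0035 (NH4Cl plus TGF-β against TGF-β, replicates 2 and 3), 0.044 (interaction, replicates 2 and 3) and 0.0074 (averaged, replicates 1 and 3). For MT1G they were -0.17 (NH4Cl plus TGF-β against TGF-β, replicates 2 and 3), and, with replicates 1 and 2 with or without the block, 0.073 (NH4Cl plus TGF-β against NH4Cl) and 0.0057 (interaction). For TGF-β against control they were -0.023 for MT1X (replicates 2 and 3), -0.057 for MT2A (replicates 1 and 3) and -0.021 for MTF1 (replicates 1 and 2, with or without the block). MT1E had -0.11 for NH4Cl plus TGF-β against NH4Cl (replicates 2 and 3) and 0.095 for the interaction (replicates 1 and 3), and MT2A -0.052 for the interaction (replicates 2 and 3).

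With 1 library left out, the ranges below run over the fits without and with the block together. Those of MT2A, MT1E and MT1X are the widest. For NH4Cl against control they ranged from -0.67 to 0.084 for MT1E, -0.39 to 0.58 for MT1X, -0.69 to 0.19 for MT2A and -0.040 to 0.034 for SLC30A1. For NH4Cl plus TGF-β against TGF-β they ranged from -0.71 to 0.011 for MT1E, -0.30 to 0.30 for MT1G, -0.11 to 0.55 for MT1X and -0.57 to 0.25 for MT2A. For TGF-β against control the ranges were -0.28 to 0.57 for MT1E, -0.074 to 0.52 for MT1G, -0.27 to 0.61 for MT1X, -0.47 to 0.49 for MT2A and -0.0012 to 0.094 for MTF1. For NH4Cl plus TGF-β against NH4Cl they were -0.22 to 0.39 for MT1E, -0.30 to 0.18 for MT1G, -0.090 to 0.68 for MT1X and -0.28 to 0.47 for MT2A. For the interaction they were -0.50 to 0.35 for MT1E, -0.56 to 0.028 for MT1G, -0.40 to 0.57 for MT1X, -0.42 to 0.54 for MT2A, -0.081 to 0.0085 for SLC30A1 and, with no change of sign, -0.23 to -0.11 for MTF1. Averaged over both states they were -0.014 to 0.28 for MT1G, -0.11 to 0.38 for MT1X and -0.047 to 0.018 for MTF1. Without the block, the negative values of MT1E and MT2A in the NH4Cl comparisons turned positive when replicate 3 of the group without NH4Cl was left out, and that of MT2A with TGF-β also without NH4Cl plus TGF-β replicate 2 (log2 fold change of MT2A, NH4Cl plus TGF-β against TGF-β, 0.025). Averaged values of MT1E and MT2A kept their sign, at -0.54 to -0.17 and -0.46 to -0.015 without the block and -0.46 to -0.33 and -0.30 to -0.21 with it. Where 1 library was left out of a group of 3, the others are assumed to vary like those of the other groups. The cause of these changes was not tested.

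The depth, 14807630 to 18191998 reads on genes, limits the precision of MT1F and MT1G, which rest on 2 to 21 and 4 to 21 reads per library, and of MT1A, on 1 to 14, which passed in the block model with the filter but not with no filter (limma adjusted p = 0.0537 with TGF-β and 0.0628 averaged).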
